A study of Mytilus galloprovincialis with 8 samples.

Results

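A set of 48 transcripts had a lower signal in mussels exposed to okadaic acid (OA) than in control mussels in both digestive gland and gill, out of 51300 probes on an oligonucleotide microarray of the Mediterranean mussel Mytilus galloprovincialis. A probe was taken into the set when its log2 ratio of exposed to control RNA was below -0.7 in both digestive gland replicates and in both gill replicates. For that ratio, the local background was subtracted from the median intensity of each spot, values below 0 were set to 0, 50 was added to each channel, and the median ratio of the array was subtracted. The digestive gland condition was met by 996 probes (1.94%) and the gill condition by 82 (0.160%), so the 48 probes (0.0936%) were 4.82% of the former and 58.5% of the latter. The set was thus chosen by the measured ratios of exposed to control RNA in all 4 replicates, which are given as a description with no test. Tests were made only of the difference between the tissues in their change and in the level of control mussels. Neither difference was a criterion, but both are made of values that enter the ratios, since the control signal is the lower part of each ratio.

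Adult mussels were split at random into an exposed group, given a Prorocentrum lima culture for 24 h, and a control group without it. Both groups ate the microalgae Tetraselmis suecica and Isochrysis galbana. The sample records state the dose as 200 cells/ml, whereas the methods give the same figure per litre. Each RNA was a pool of 5 mussels, 2 exposed and 2 control pools were made for each tissue, and each replicate was an array carrying 1 exposed and 1 control pool plus its dye swap, which gave 8 arrays. In the codes of the pools the first number is the same for both control replicates and differs between the exposed replicates, and its meaning is not stated. Whether the pools came from separate tanks is also not stated, so the p-values below measure the spread between these pools. Tissue was bulk tissue, in which fewer cells of a type and less RNA per cell cannot be told apart.

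Okadaic acid is a polyether toxin made by Prorocentrum and Dinophysis dinoflagellates and the main cause of diarrhetic shellfish poisoning. It inhibits the serine/threonine protein phosphatases PP1 and PP2A, so that phosphate groups remain on many cell proteins. Mussels take up the algae through the gill, a ciliated tissue that filters food particles from seawater and exchanges gases, and lipophilic toxins accumulate in the digestive gland, where food is broken down.

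The probes were named only by the contig they were designed on, an assembled stretch of cDNA. No table that pairs these contigs with genes or sequences was used here, so the transcripts are described by contig, no role is given to any of them, and lists of tissue markers or of pathway genes could not be applied. The labelled tissues were therefore not checked against defining markers. Each of the 48 probes stood for a contig of its own, but different contigs may belong to 1 gene, which was not examined. The share of spots well above background for both RNAs ranged from 51.7% to 57.4% on the digestive gland arrays and from 37.0% to 39.6% on the gill arrays. All arrays lay on 1 slide, with digestive gland in 1 row of positions and gill in the other, so that tissue and position on the slide cannot be told apart.

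The contigs came largely from the library of control mussels. The array had been designed from digestive gland cDNA libraries: a normalized library of control mussels (MGC in the contig names), a normalized library of exposed mussels (MGT), and suppression subtractive hybridization (SSH) libraries, of which the forward one was made to enrich transcripts more abundant after exposure. Read from these codes, 42 of the 48 contigs (87.5%) were from the normalized control library, 6 (12.5%) from the normalized exposed library and 0 from the SSH forward library. Among all probes the shares were 33.2%, 37.4% and 29.4%. Among the 17484 probes whose control RNA was well above background on all arrays they were 38.4%, 36.8% and 24.8%. The SSH reverse library, made to represent transcripts lowered by exposure, supplied by the same codes only 2 of the 51300 probes and 0 of the 48. The 948 probes below the limit in digestive gland but not in gill had 63.7% of contigs from the control library, and the 34 probes below it in gill alone had 61.8%. The library of a contig and its ratio in digestive gland both come from exposed and control mussels of the same study, so these shares are given without a test.

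**Figure D1:**
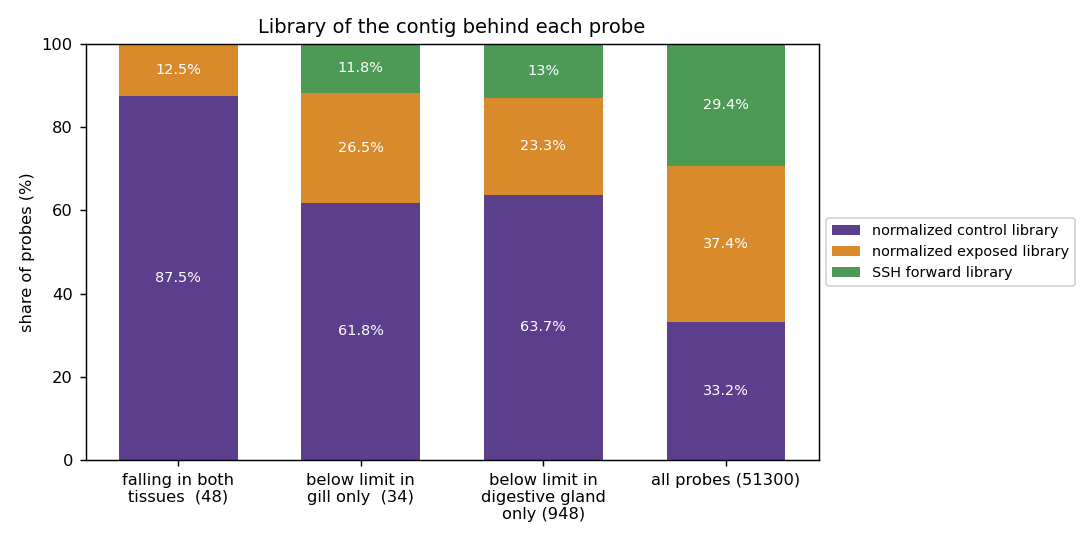
Share of probes (%) by the cDNA library of their contig, for the 48 transcripts falling in both tissues, the probes below the limit in 1 tissue alone, and all 51300 probes. The control library supplied 87.5% of the 48 contigs against 33.2% of all probes, and the SSH forward library supplied 0.

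In control mussels these transcripts gave a clear signal in both tissues. Control RNA was well above background on all 8 arrays for 48 of the 48 probes, against 34.1% of all probes. The choice largely fixes this count, because with an offset of 50 a ratio below -0.7 needs a control signal clearly above 0. Signals below are background-subtracted median intensities in scanner units, averaged over an array and its dye swap. In digestive gland control pools the lowest, median and highest of the 48 signals were 39.5, 509 and 64374 in replicate 1 and 33.5, 473 and 55181 in replicate 2. In the exposed pools they were 0, 59.6 and 5161, and 0, 73.6 and 7064. The median exposed signal was thus a small part of the control signal in both replicates. In gill the control pools gave 41.8, 198 and 8984, and 28.5, 170 and 9888, and the exposed pools 0, 29.1 and 844, and 0, 41.6 and 2836. For each of the 48 transcripts both exposed pools lay below both control pools, in digestive gland and in gill, as the choice of the set requires in large part. The share of all probes that meet this condition was not counted, so it is not read as a trait of the set.

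The median log2 ratio of the set was -2.08 in digestive gland, with -2.14 and -2.01 in the replicates, and -1.42 in gill, with -1.38 and -1.41. The medians over all probes were -0.10 and -0.03. Mean ratios ran from -5.54 to -0.77 in digestive gland and from -4.72 to -0.83 in gill. There were 28 transcripts below -2 in digestive gland, 15 in gill and 10 in both, and 27 transcripts were below -1 in each of the 4 replicates. Across the 48 transcripts, which share arrays and the limit of the rule, the correlation of both means was r = -0.07. Exposed RNA was well above background on no array for 10 of them in digestive gland and for 12 in gill. Those falls are only bounds, so whether the sizes of the change in the 2 tissues are related is not settled. In the limma fit used for the tests below, 45 of the 48 fell in digestive gland at an adjusted p under 0.05 (8.70% of all probes did) and 9 fell in gill (0.0195% of all probes). Over the alternatives the limma counts ran from 27 to 48 in digestive gland and from 0 to 48 in gill, with 0 under the replicate block and without digestive gland replicate 1, digestive gland replicate 2 or gill replicate 1, each with 48 at an unadjusted p under 0.05. Nothing is read from these counts, because the choice used the same contrasts.

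**Figure D2:**
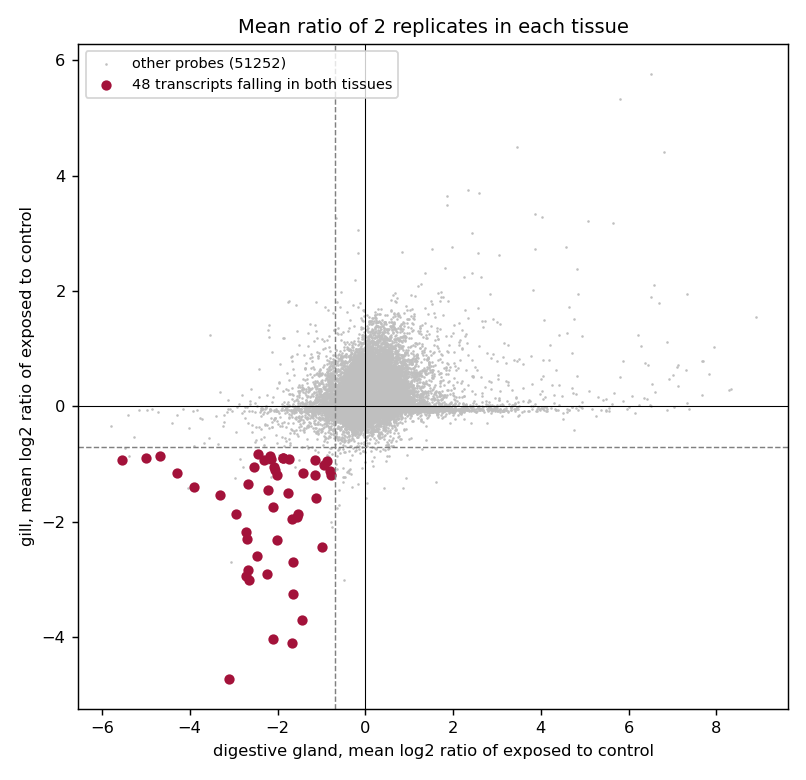
Mean log2 ratio of exposed to control in gill (vertical axis) against digestive gland (horizontal axis), each point a probe and each value the mean of 2 replicates, with dashed lines at -0.7. The 48 transcripts (red) fill the lower left corner, from -5.54 to -0.77 in digestive gland and from -4.72 to -0.83 in gill.

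Replicates lay close together in digestive gland and less so in gill. The SD between replicates had a median of 0.16 in digestive gland and 0.22 in gill, on the log2 scale. The largest difference between replicates was 0.74 in digestive gland and 3.16 in gill, and 7 transcripts differed by more than 1 between the gill replicates against 0 in digestive gland. In gill 34 of the 48 were lower in replicate 1 than in replicate 2. The shares of all probes for these counts were not taken, so they are not read as a trait of the set. Over all probes, ratios of replicate arrays with the same dye correlated at 0.77 to 0.97 in digestive gland and 0.51 to 0.71 in gill. The control channel repeated more closely than the exposed channel: the median difference between replicates of the 48 was 0.08 for control and 0.20 for exposed RNA in digestive gland, and 0.18 and 0.33 in gill. The 17484 probes with control RNA above background on all arrays showed the same order, with 0.08 and 0.13 in digestive gland and 0.12 and 0.20 in gill. The part of the shared first number of the control codes in this was not tested.

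**Figure D3:**
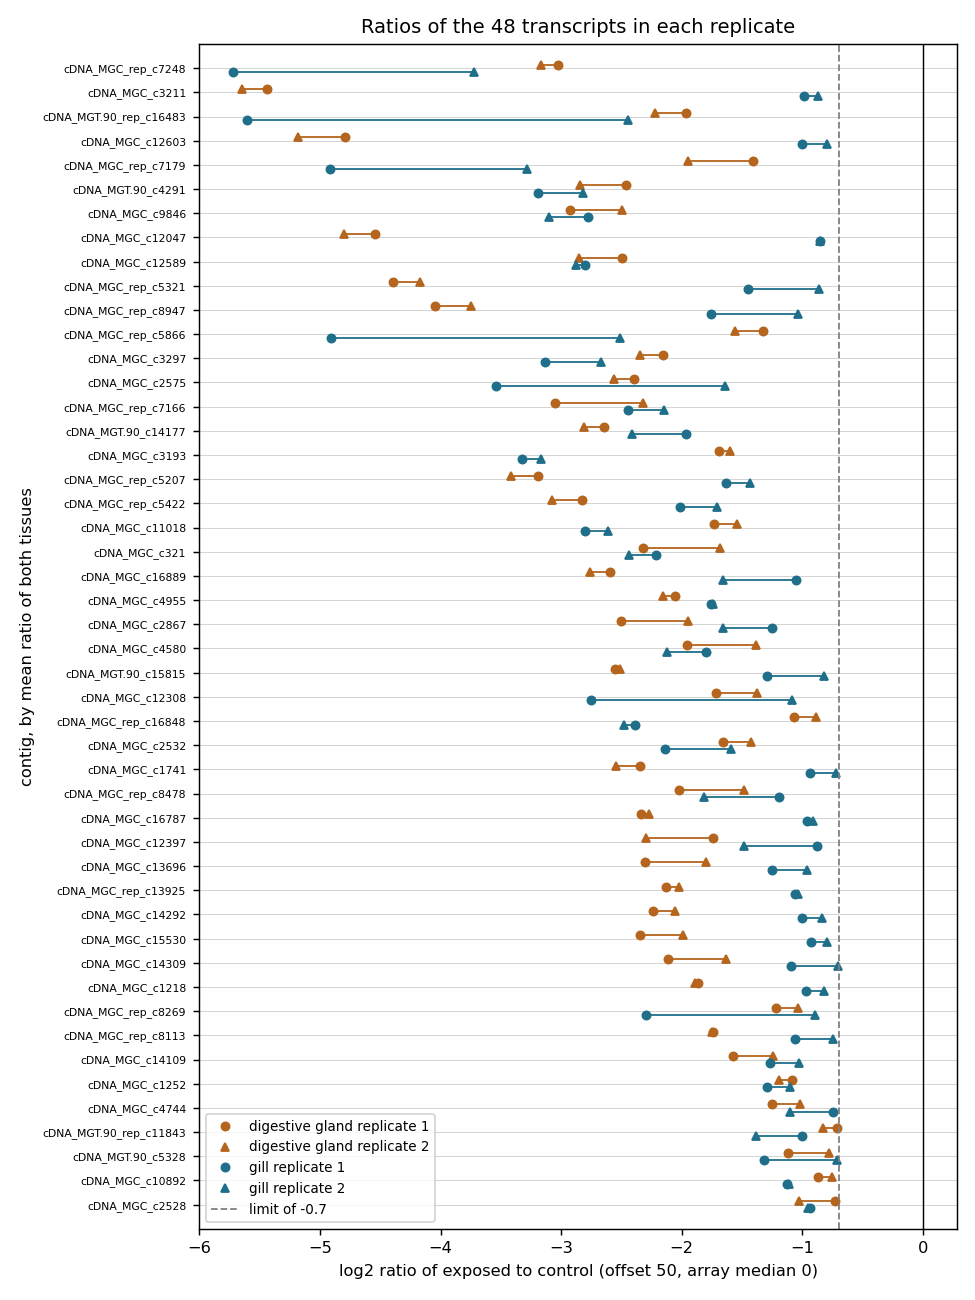
Log2 ratio of exposed to control (horizontal axis, offset of 50, array median at 0) of each of the 48 transcripts in the 4 replicates, ordered by their mean, with lines joining the replicates of a tissue. Digestive gland replicates differ by at most 0.74, whereas gill replicates differ by up to 3.16.

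The ratio also depended on the dye. On arrays with the exposed RNA in Cy3 the median ratio of the 48 was -2.75 and -2.61 in digestive gland and -1.94 and -1.88 in gill, and on arrays with it in Cy5 it was -1.35, -1.56, -1.15 and -1.11. The medians were below the limit with either dye, and the mean over a dye swap weights both dyes equally. On single arrays 46 of the 48 were below 0 on all 8 (0.943% of all probes were). The exceptions were cDNA_MGC_rep_c8269, at 0.81 on the gill replicate 2 array with exposed RNA in Cy5, and cDNA_MGT.90_rep_c11843, at 0.22 and 0.0050 on the digestive gland arrays with that dye.

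A first group of transcripts was most abundant in gill. In gill control pools cDNA_MGC_rep_c7248 (probe CUST_7248_PI427859148), the transcript with the lowest mean ratio of the set, gave 8984 and 9888, against 117 and 755 in the exposed pools. In digestive gland its control pools gave 623 and 535 and its exposed pools 17.5 and 22.2. The exposed pools were far below the control pools in both tissues, and the gill replicates differed mainly in the exposed pool. Its log2 ratios were -3.02 and -3.17 in digestive gland and -5.72 and -3.72 in gill.

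The same contrast between gill replicates was found in 3 further transcripts of that kind. For cDNA_MGT.90_rep_c16483 (CUST_30006_PI427859148), a contig of the exposed library, gill control pools gave 5316 and 5637 and exposed pools 53.5 and 1024, with ratios of -5.60 and -2.45. For cDNA_MGC_rep_c5866 (CUST_5866_PI427859148), gill control pools gave 1929 and 1978 and exposed pools 10.5 and 322, with ratios of -4.90 and -2.51. For cDNA_MGC_rep_c7179 (CUST_7179_PI427859148), gill control pools gave 1773 and 1781 and exposed pools 6.50 and 144, with ratios of -4.91 and -3.28. In each of these the control pools of gill were nearly equal and the exposed pool of replicate 1 was the lowest. In digestive gland their control pools lay between 79 and 228, and their ratios between -2.22 and -1.33. The exposed digestive gland RNA of cDNA_MGC_rep_c7179 and of cDNA_MGC_rep_c5866 was not well above background on any array, so that only bounds hold there, at least 2.61-fold lower and at least 2.18-fold lower. Such bounds compare the mean control level with the mean of, per array, the higher of the probe's own exposed level and the lowest level that was well above background, all in normalised log2 values of single channels.

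A second group was most abundant in digestive gland. In gill its control RNA gave far lower signals, still well above background on all arrays, and its exposed RNA was close to background. The brightest transcript of the set was cDNA_MGC_rep_c8947 (CUST_8946_PI427859148), with 64374 and 55181 in digestive gland control pools and 3760 and 4988 in exposed pools. In gill its control pools gave 126 and 107 and its exposed pools 0 and 32.2. Exposed pools were lower in both tissues, at signals that differed by orders of magnitude between the tissues. Its ratios were -4.05 and -3.74 in digestive gland and -1.75 and -1.03 in gill. Next came cDNA_MGC_rep_c5321 (CUST_5321_PI427859148), with 41552 and 31980 in digestive gland control pools and 1944 and 2182 in exposed pools, and with 94.8 and 70 against 1 and 21 in gill. In gill, exposed RNA of both was well above background on 2 of 4 arrays.

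The lowest digestive gland ratios of the set were in the same group. For cDNA_MGC_c3211 (CUST_3211_PI427859148) digestive gland control pools gave 12832 and 9968 and exposed pools 216 and 183, with ratios of -5.44 and -5.64. For cDNA_MGC_c12603 (CUST_12594_PI427859148) they gave 3587 and 2939 against 59.8 and 38.9, with ratios of -4.80 and -5.18. For cDNA_MGC_c12047 (CUST_12038_PI427859148) they gave 3802 and 2923 against 84 and 64.2, with ratios of -4.55 and -4.80. The digestive gland replicates of these 3 differed by 0.21, 0.39 and 0.26. In gill the control pools of all 3 were between 35 and 53 and the exposed pools between 0 and 11.9. There, exposed RNA was well above background on no array, and the gill difference is known only as at least 1.83-fold, 1.84-fold and 1.73-fold lower.

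Other transcripts were measured at raw signals of the same order in both tissues. This does not show equal levels, since the gill arrays were dimmer. In the normalised control channel, digestive gland minus gill was -1.75 for cDNA_MGC_c9846, -2.24 for cDNA_MGT.90_c14177 and -2.35 for cDNA_MGT.90_c4291, on the log2 scale. With subtracted signals plus 50, centred on each channel's median, these differences were -0.09, -0.17 and -1.24. For cDNA_MGC_c9846 (CUST_9845_PI427859148) the control pools gave 1659 and 1277 in digestive gland and 1016 and 916 in gill, and the exposed pools 137 and 210, and 92.5 and 71.5. Its 4 ratios lay between -3.10 and -2.50. For cDNA_MGT.90_c14177 (CUST_28062_PI427859148) the control pools gave 5048 and 4794 in digestive gland and 2287 and 4779 in gill, and the exposed pools 487 and 620, and 530 and 702. Exposed pools were several-fold lower in both tissues, and here the gill replicates differed in the control pool rather than in the exposed one. For cDNA_MGT.90_c4291 (CUST_21160_PI427859148) control pools gave 290 and 310, and 469 and 543, against 3 and 4.5, and 3.75 and 33.2, and its exposed RNA was well above background on 1 digestive gland array and 2 gill arrays.

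In cDNA_MGC_c12589 (CUST_12580_PI427859148) no exposed RNA was measured above background in either tissue. Its control pools gave 276 and 264 in digestive gland and 319 and 301 in gill, and its exposed pools gave 1.62 and 0, and 0.375 and 1. It was spotted 2 times on each array, and the spots differed by 0.22 at most in log2 ratio. The bounds were at least 5.22-fold lower in digestive gland and at least 7.33-fold lower in gill. The same held, at lower control signals, for cDNA_MGC_c1741 (at least 4.43-fold and 1.68-fold), cDNA_MGC_c12397 (3.27-fold and 2.13-fold), cDNA_MGC_c1252 (1.84-fold and 2.21-fold) and cDNA_MGC_c2528 (1.57-fold and 1.84-fold). In all, exposed RNA was well above background on all arrays for 31 of the 48 in digestive gland and 26 in gill, on some arrays for 7 and 10, and on no array for 10 and 12. The shares of all probes in these classes were not counted, and gill arrays had fewer spots well above background in general. These counts are therefore not read as a trait of the set.

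**Figure D4:**
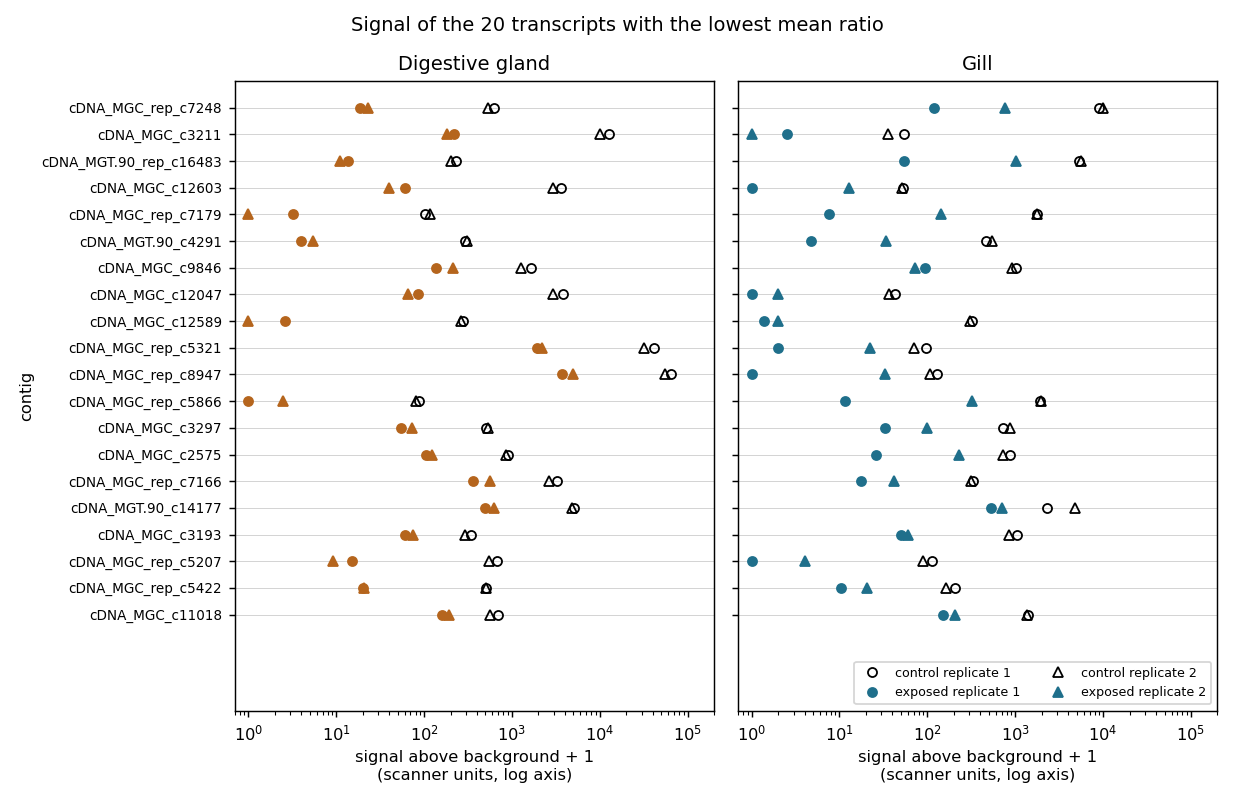
Signal above background plus 1 (scanner units, log axis) of the 20 transcripts with the lowest mean ratio, in digestive gland (left) and gill (right). Open symbols are control pools and filled symbols exposed pools, each the mean of an array and its dye swap; every exposed pool lies to the left of both control pools of its tissue, and several exposed gill pools lie at or near 0 above background.

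The other transcripts with low mean ratios were not assigned to a group. In cDNA_MGC_c3297 (CUST_3297_PI427859148) the ratios were -2.15 and -2.35 in digestive gland and -3.13 and -2.67 in gill. In cDNA_MGC_c2575 (CUST_2575_PI427859148) they were -2.40 and -2.56, and -3.54 and -1.64, the latter again with a lower exposed pool in replicate 1 (25 against 227) at control signals of 864 and 721. In cDNA_MGC_rep_c7166 (CUST_7166_PI427859148) they were -3.05 and -2.32, and -2.45 and -2.15. The tissues overlapped in the ratios of cDNA_MGC_c2575 and cDNA_MGC_rep_c7166, and in cDNA_MGC_c3297 both gill ratios were the lower ones. Values of cDNA_MGC_c3193 (CUST_3193_PI427859148) were -1.69 and -1.60 in digestive gland and -3.32 and -3.17 in gill, and of cDNA_MGC_c11018 (CUST_11013_PI427859148) -1.73 and -1.54, and -2.80 and -2.61. Those of cDNA_MGC_rep_c5207 (CUST_5207_PI427859148) were -3.19 and -3.41, and -1.63 and -1.44, and those of cDNA_MGC_rep_c5422 (CUST_5422_PI427859148) -2.82 and -3.08, and -2.02 and -1.71. The first pair had the lower ratios in gill and the second pair in digestive gland, with no overlap between the tissues in any of these 4. Exposed gill RNA of cDNA_MGC_rep_c5207 was on no array well above background, and at least 2.85-fold lower.

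Nearest to the limit from within were cDNA_MGC_c14309, with -0.70 as its highest replicate value, cDNA_MGT.90_rep_c11843 and cDNA_MGT.90_c5328, both with -0.71. Nearest from outside were cDNA_MGC_rep_c8007 at -0.69, cDNA_MGC_rep_c7872 at -0.68 and cDNA_MGC_c14049 at -0.67. The set thus ends in a continuous range of values.

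The change with exposure differed between the tissues for 23 of the 48 transcripts (9.72% of all 51210 probes tested, and 13.7% of those with control RNA above background on all arrays), in limma's moderated test of digestive gland against gill with Benjamini-Hochberg adjustment at 0.05. Digestive gland had the larger fall in 17 and gill in 6. Of all probes tested, a larger fall or smaller rise was called in digestive gland for 4.69% and in gill for 5.03%. Among those with control RNA above background on all arrays the shares were 8.04% and 5.62%. These shares can include probes that rose. The other 25 did not pass, which does not show that they changed alike. The choice of the set bears on this count, since it kept only probes with a sizeable negative ratio in both tissues. In 6 of the 17 the exposed gill RNA was well above background on no array, so that the gill value is only a bound and neither the size nor the direction of the difference is established, and in 1 of the 6 the same held for digestive gland. Among the 31 transcripts with exposed RNA above background on at least 1 array in both tissues, 9 and 4 were called, a restriction made after the values were seen.

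The most negative fitted differences towards digestive gland belonged to transcripts whose exposed RNA was close to background in gill. As digestive gland minus gill in log2 ratio, they were -4.74 for cDNA_MGC_c3211, -4.07 for cDNA_MGC_c12603 and -3.88 for cDNA_MGC_c12047. Because the gill values of these 3 are bounds, the differences have no settled size or direction. The difference was -3.25 (SE 0.16, limma adjusted p = 0.00517) for cDNA_MGC_rep_c5321 and -2.58 (SE 0.17, limma adjusted p = 0.00827) for cDNA_MGC_rep_c8947. Exposed gill RNA of both was well above background on 2 of 4 arrays. Their exposed gill pools gave 1 and 0 in replicate 1, against 21 and 32.2 in replicate 2. The gill value of replicate 1 is therefore near the floor, and the size of both differences is not settled. Taken from the processed signals of Feature Extraction, without an offset, all 5 calls were lost. The values there were -1.19, -2.20 and -1.03 for the first 3, -0.33 for cDNA_MGC_rep_c5321 and 0.38 for cDNA_MGC_rep_c8947, whose direction thus turned. The call of cDNA_MGC_c12603 was also lost without gill replicate 2, and that of cDNA_MGC_rep_c8947 without digestive gland replicate 2.

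Towards gill, the difference was 2.90 (SE 0.37, limma adjusted p = 0.0272) for cDNA_MGC_rep_c7179, whose digestive gland value is a bound. It was 1.85 (SE 0.14, limma adjusted p = 0.0103) for cDNA_MGC_c3193, 1.65 (SE 0.23, limma adjusted p = 0.0303) for cDNA_MGC_rep_c16848 and 1.30 (SE 0.14, limma adjusted p = 0.0199) for cDNA_MGC_c11018. For these 3 the exposed RNA was well above background on every array of both tissues. The calls of all 4 were lost when either digestive gland replicate was left out, at limma adjusted p between 0.0578 and 0.115, with differences of 1.24 to 3.13. That of cDNA_MGC_c11018 was also lost without gill replicate 2 (limma adjusted p = 0.0548), and that of cDNA_MGC_rep_c7179 with the processed signals (1.49, limma adjusted p = 0.548). Ratios of cDNA_MGC_rep_c16848 were -1.07 and -0.89 in digestive gland and -2.39 and -2.48 in gill. A smaller difference of 0.44 (SE 0.07, limma adjusted p = 0.0434) for cDNA_MGC_c2532 was lost in 8 of 12 alternatives. The larger differences of cDNA_MGC_rep_c7248 (2.12, SE 0.51, limma adjusted p = 0.0898), cDNA_MGT.90_rep_c16483 (2.48, SE 0.89, limma adjusted p = 0.193) and cDNA_MGC_rep_c5866 (2.82, SE 0.59, limma adjusted p = 0.0692) did not pass, with gill replicates that differed by 1.99, 3.16 and 2.39. With either gill replicate left out, or either digestive gland replicate, 6 to 13 of the 48 were called.

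The level in control mussels differed between the tissues for 44 of the 48 (51.9% of all probes) in limma's test on the normalised control channel, with 31 higher in gill (32.0% of all probes, and 62.9% of those with control RNA above background on all arrays) and 13 higher in digestive gland (19.9% and 20.9%). This split depended on scaling, and gill arrays were the dimmer ones. On the scale of subtracted signals plus 50, centred on the median of each channel, 15 were higher in gill (51.8% of all probes), 21 higher in digestive gland (36.6%) and 12 did not pass. Between these scalings the median difference over probes with control RNA above background on all arrays moved from -0.52 to 0.66. On both scales 13 transcripts were higher in digestive gland and 15 higher in gill, and 5 were called in opposite directions. The shares of all probes called alike or oppositely on both scales were not counted. Nor were those of the subtracted scale among probes with control RNA above background on all arrays. The split is therefore not read as a trait of the set.

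The largest control level differences held their direction and call on both scales and in 9 of 9 alternatives. Digestive gland minus gill, on the log2 scale, they were -6.31 for cDNA_MGT.90_rep_c16483, -6.15 for cDNA_MGC_rep_c7248, -5.47 for cDNA_MGC_rep_c5866, -5.09 for cDNA_MGC_rep_c7179 and -3.54 for cDNA_MGC_rep_c8269, all higher in gill. Their SE was between 0.06 and 0.13. Higher in digestive gland were cDNA_MGC_rep_c8947 by 6.11, cDNA_MGC_rep_c5321 by 5.77, cDNA_MGC_c3211 by 5.02, cDNA_MGC_c12047 by 3.45 and cDNA_MGC_c14292 by 3.24, with an SE between 0.06 and 0.14. The limma adjusted p of these 10 was between 6.6e-07 and 4.4e-06. Their sizes moved by more than the SE over the alternatives. They ran from -6.82 to -4.91 for cDNA_MGT.90_rep_c16483, from -3.65 to -1.52 for cDNA_MGC_rep_c8269 and from 3.04 to 5.01 for cDNA_MGC_c14292. The set therefore held transcripts of which control mussels had far more in gill, such as cDNA_MGT.90_rep_c16483. It held others of which they had far more in digestive gland, such as cDNA_MGC_rep_c8947. The last of the 10, cDNA_MGC_c14292 (CUST_14257_PI427859148), gave 9147 and 8638 in digestive gland control pools against 1966 and 2672 in exposed pools. In gill it gave 123 and 138 against 35.5 and 58.8. For cDNA_MGC_rep_c8269 (CUST_8268_PI427859148) gill control pools gave 4486 and 5291 and exposed pools 844 and 2836, and digestive gland gave 2787 and 2226 against 968 and 1159.

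The relation between control level and change depended on the scale of the control level. In the normalised channel values, 9 of the 17 transcripts with the larger fall in digestive gland had the higher control level there and 7 had it in gill, such as cDNA_MGC_c14309 at -1.42. All 6 with the larger fall in gill had the higher control level in gill. On the subtracted scale, 14 of the 17 had the higher control level in digestive gland and 0 in gill, and 5 of the 6 had it in gill. Of the 13 transcripts higher in digestive gland on both scales, 9 had the larger fall there, 0 in gill and 4 did not differ significantly (limma, 11 and 0 at an unadjusted p under 0.05). Of the 15 higher in gill on both scales, 5 had the larger fall in gill, 0 in digestive gland and 10 did not differ significantly (11 and 0 at an unadjusted p under 0.05). Shares of all probes in the same classes were not counted, so these counts are not read as a trait of the set. In 5 of the 9 the exposed gill RNA was well above background on no array, and in 1 of the 5 the exposed digestive gland RNA, so that the offset limits the fall that could be seen in the tissue with the lower level. Across the 48 the correlation between the difference in control level and the difference in change was r = -0.88, as a description. Both measures contain the control channel, and the offset of 50 draws the ratio of a dim probe towards 0, so that a transcript near background in a tissue cannot reach a low ratio there. The part of these in the relation was not tested.

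**Figure D5:**
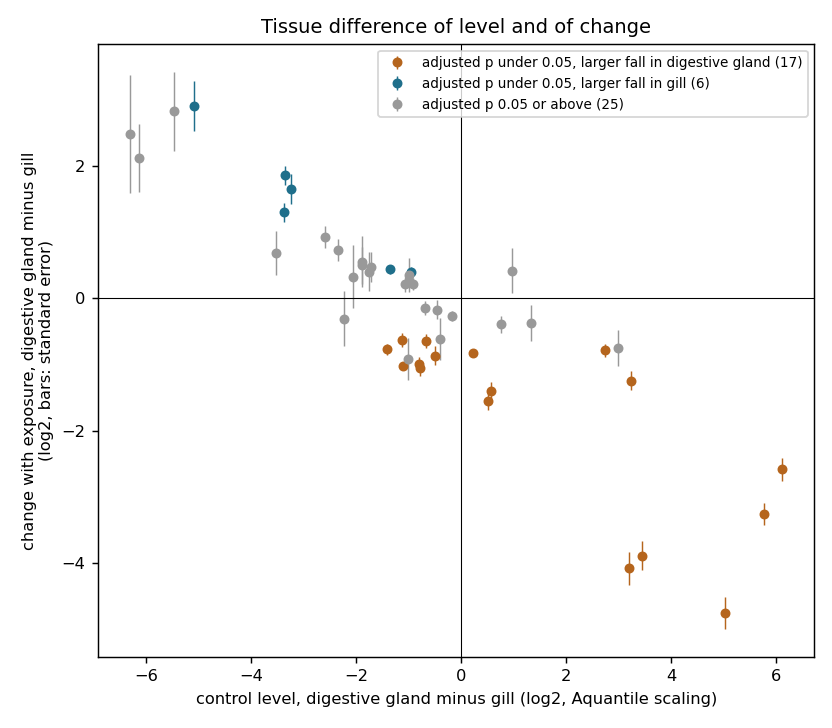
Difference in change with exposure (vertical axis, log2, bars are standard errors) against difference in control level (horizontal axis, log2), each digestive gland minus gill, for the 48 transcripts. The 17 with the larger fall in digestive gland (brown) reach -4.74 on the right, and the 6 with the larger fall in gill (blue) lie at the upper left, up to 2.90.

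Ranked among all probes in the normalised single-channel values, their median percentile in control RNA was 83.9 in digestive gland and 88.7 in gill, and in exposed RNA 46.5 and 74.1. A high rank in control RNA and a lower one in exposed RNA follow in part from the choice, and ranks compare different probes. The lowest control percentile of any of the 48 was 55.0 in digestive gland and 70.0 in gill.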

How the data were processed

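The authors deposited, for each of 8 two-colour Agilent arrays, files written by Agilent Feature Extraction 10.7.3.1. The deposited intensity of each spot (median signal, background median and processed signal) and the deposited quality marks (0 or 1, of type other) were used. A log2 table of red over green, deposited by the authors, served as an alternative. It was matched by normexp with an offset of 10 and loess (r of 0.9996 or more) and has column medians from -0.0091 to 0.0064. The dye Cy6 named for 1 array was read as Cy5.

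The 48 members and the lists were chosen with earlier results of these data known. Tests used limma 3.58.1 in R 4.3.3: normexp (offset 50), loess, outlier spots (0.0438% to 0.146%) left out, spots of a probe and dye swaps averaged, giving 2 replicates per tissue, 2 residual degrees of freedom and Benjamini-Hochberg adjustment over 51210 probes. Control channels were separated after loess and Aquantile. With 2 against 2, a permutation test cannot go below p = 0.333. Fits were tested on simulated data. Without loess, turned arrays of opposite dye correlated at -0.30 to 0.29 within digestive gland, -0.33 to 0.16 within gill and -0.60 to 0.07 across tissues. After loess these were 0.83 to 0.91, 0.36 to 0.76 and 0.05 to 0.25. Direction was taken from the labelled dyes. The number of arrays limits precision. Values are from array intensities, so no sequencing depth applies.

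Named transcripts were the 20 with the lowest mean ratio, the 3 nearest the limit on either side, and up to 5 each way with the largest called difference between tissues. Others named were chosen after their values were seen. Gene lists planned for named probes were not applied because no names were at hand. Alternatives changed the offset, background correction, normalization, dyes, limits, filters, replicates, blocks and source table. Restricting to members with measured exposed RNA, and adding 50 to the processed signals, were chosen after seeing the data.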

Additional observations from a re-analysis of the deposited data

Results flagged for a closer look

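By limma's test of the difference, the change with exposure differed between the tissues for 23 of the 48 transcripts. The larger fitted fall was in digestive gland for 17 and in gill for 6. Of all probes tested, 4.69% and 5.03% were called in these directions, which can include rises. Among those with control RNA above background on all arrays, 8.04% and 5.62% were. The set was chosen on the same changes, which bears on these counts. Exposed RNA of the other tissue was well above background on no array in 6 of the 17 and 1 of the 6. The direction of those differences is not established. As digestive gland minus gill, the named ones were cDNA_MGC_c3211 (-4.74), cDNA_MGC_c12603 (-4.07), cDNA_MGC_c12047 (-3.88), cDNA_MGC_rep_c5321 (-3.25) and cDNA_MGC_rep_c8947 (-2.58), with the larger fitted fall in digestive gland. With the larger fitted fall in gill they were cDNA_MGC_rep_c7179 (2.90), cDNA_MGC_c3193 (1.85), cDNA_MGC_rep_c16848 (1.65), cDNA_MGC_c11018 (1.30) and cDNA_MGC_c2532 (0.44). The exposed gill RNA of the first 3 was not well above background on any array, nor was the exposed digestive gland RNA of cDNA_MGC_rep_c7179, so that the size and direction of these 4 differences are not established. The sizes for cDNA_MGC_rep_c5321 and cDNA_MGC_rep_c8947 are not settled either, because their exposed gill signal in replicate 1 was near background. For cDNA_MGC_rep_c8947 the direction is not settled, since the difference was 0.38 with the processed signals.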

How the results depend on the processing

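The number of transcripts below the limit in both tissues, 48, was 171 with an offset of 10, 26 with 100, 368 with processed signals, 179 with processed signals plus 50, 146 with the authors' log2 table, 27 with exposed RNA in Cy5 only, 458 with it in Cy3 only, 87 at a limit of -0.5, 27 at -1, and 52 to 109 with 1 replicate left out (109 without gill replicate 2). Of the 48, 47 were among those found with processed signals and with the table, and 44 of 61 after normexp and loess. The cause was not tested, apart from fewer replicates being required.

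The 23 differences in change were 6 with processed signals, 13 with measured exposed RNA in both tissues, and 6 to 13 with 1 replicate left out (11 without digestive gland replicate 1, 6 without digestive gland replicate 2, 11 without gill replicate 1 and 13 without gill replicate 2). Those with the larger fall in digestive gland, 17, were 3, 9, and 6 to 11. Those with the larger fall in gill, 6, were 3 with processed signals, 11 with arrays entered separately, and 0 to 6 with 1 replicate left out (0 in limma with either digestive gland replicate left out, with 8 and 11 at an unadjusted p under 0.05). The difference of cDNA_MGC_rep_c8947 reversed to 0.38 with processed signals. Leaving out replicates leaves fewer samples, and other causes were not tested.

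Control levels were higher in gill for 15 and in digestive gland for 21 on the subtracted scale, against 31 and 13, and differed for 36 to 47 in all alternatives run. With 1 replicate left out, 43 to 47 differed.

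Replicate numbers are shared by the tissues but do not pair the samples by any label. With the replicate block 25 changes and 47 control levels differed. Deviations of same-numbered samples correlated at r = 0.16 for change and 0.21 for control level, over probes and with only 2 numbers.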
